A study of Mus musculus with 38 samples.

Results

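Genes that move iron into heart tissue, store it, export it and sense it were described in left ventricle RNA of a mouse model of HFpEF, heart failure in which the ejection fraction is preserved. They were taken by name from the gene tables. All 8 were found among the 29564 genes listed, and all 8 were among the 13765 genes that passed the filter on low counts. They are Tfrc, Slc11a2 and Slc39a14 for uptake, Fth1 and Ftl1 for storage, Slc40a1 for export, and Ireb2 and Aco1 for sensing. The series held 38 libraries, 1 per mouse, in 4 groups of C57BL6 mice with a wild-type background. The non_failing mice were controls (n = 8). The other 3 groups shared the HFpEF model, made by fat-rich food together with L-NAME, a blocker of nitric oxide synthesis. They received vehicle (HFpEF+Veh, n = 8), TYA-018, which inhibits HDAC6 (HFpEF+TYA-018, n = 11), or empagliflozin, which inhibits SGLT2 (HFpEF+SGLT2i, n = 11). The title of the deposited data gives 3 months of treatment, the labels give no age, and none of the mice carried a targeted allele. The model rests on diet and a drug in the whole animal, and RNA came from pieces of left ventricle with all their cell types. Fewer cells of a type and less RNA per cell therefore cannot be told apart.

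Libraries held 21451631 to 59280407 counts. All 7 cardiomyocyte markers were above 0 in every library, with summed levels of 15303 to 29299 TPM (a level per transcript length, relative to all transcripts of the library). HFpEF+Veh V2523 stood apart through liver transcripts. Its summed level of 12 hepatocyte markers was 1305 TPM, while the median of the 8 vehicle libraries was 4.83 TPM. The same sum was 21.3 to 324 TPM in non_failing, 0.698 to 3.48 TPM in HFpEF+TYA-018 and 1.06 to 8.14 TPM in HFpEF+SGLT2i hearts. Values of HFpEF+Veh are therefore also given without V2523. The 7 erythroid markers, globins included, summed to 3786 to 8147 TPM in non_failing, 5780 to 41881 in HFpEF+Veh, 4811 to 22939 in HFpEF+TYA-018 and 4720 to 16050 TPM in HFpEF+SGLT2i hearts. The 11 macrophage markers summed to 80.5 to 151, 124 to 205, 84.1 to 228 and 112 to 203 TPM in the same order of groups.

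Iron reaches cardiomyocytes bound to transferrin, which the transferrin receptor carries into endosomes. There the metal is reduced and passed to the cytosol. Surplus iron is held in ferritin shells of heavy and light chains, and leaves the cell through ferroportin, which the hormone hepcidin removes from the membrane. Iron regulatory proteins 1 and 2, the products of Aco1 and Ireb2, bind hairpins in messenger RNA when iron is low. Binding at a 5′ untranslated region blocks translation of ferritin, and binding at the 3′ untranslated region of Tfrc protects its transcript from decay. Cardiomyocytes need iron for mitochondrial iron-sulfur clusters and heme, and altered iron use has been proposed as an effect of SGLT2 inhibitors. The question here was how the transcripts of this system stood in the model and under each drug.

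The hairpins are shown because they are the sites at which iron regulatory proteins are known to bind, and 4 of the 8 members held a match. The search on annotated transcripts (GENCODE release M21, GRCm38) asked for an unpaired C, 5 bases, the loop CAGTGN with A, C or T at its end, and 5 bases that pair with the first 5, G-T pairs allowed. It read the mRNA strand only. Letters below are the mRNA strand as DNA, 5′ to 3′, with 6 bases on either side and the loop in capitals. Tfrc held 4 matches in its 3′ untranslated region, at chr16:32631219-32631247, chr16:32631598-32631626, chr16:32631663-32631691 and chr16:32631710-32631738, plus strand, in that order here. Fth1 (chr19:9982732-9982760, plus), Ftl1 (chr7:45459779-45459807, minus) and Slc40a1 (chr1:45925465-45925493, minus) each held 1 in the 5′ untranslated region.
Tfrc first: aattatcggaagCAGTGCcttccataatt
Tfrc second: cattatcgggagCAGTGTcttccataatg
Tfrc next: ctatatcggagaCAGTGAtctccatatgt
Tfrc last: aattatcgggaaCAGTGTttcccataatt
Fth1: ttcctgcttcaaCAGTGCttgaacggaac
Ftl1: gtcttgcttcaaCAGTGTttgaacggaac
Slc40a1: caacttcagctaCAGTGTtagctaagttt

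The loop and its stem were thus at the 3′ end of the uptake receptor and at the 5′ end of both ferritin chains and of the exporter. Of 21901 coding genes, 23 (0.105%) had such a match in a 5′ and 100 (0.457%) in a 3′ untranslated region. Iron pathway genes with such a match included Alas2, in the 5′, and Bola3, in the 3′ untranslated region. No match was found in the annotated transcripts of Slc11a2, Slc39a14, Ireb2 or Aco1. The search asked for a stem paired at each base, so it can miss a hairpin with an imperfect stem. It therefore cannot tell whether these genes lack such a site. Binding at the hairpins shown was not measured.

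Levels per length differed widely between the members. The ferritin heavy chain Fth1 had the highest level, with a median over 38 libraries of 1803 TPM (1464 to 2292), and the light chain Ftl1 followed with 479.8 TPM (313 to 830.2). The transferrin receptor Tfrc had a median of 12.8 TPM and the widest relative range, from 4.89 to 51.2 TPM, a ratio of 10.5. The zinc and iron transporter Slc39a14 had 7.98 TPM (6.09 to 11.1), and Ireb2, Aco1 and the divalent metal transporter Slc11a2 had 4.84, 4.80 and 4.52 TPM. The exporter Slc40a1 had the lowest median, 3.68 TPM, and ranged from 2.19 to 9.83 TPM. The lowest count of any member was 153, for Slc40a1, and every member had counts in all 38 libraries.

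**Figure D1:**
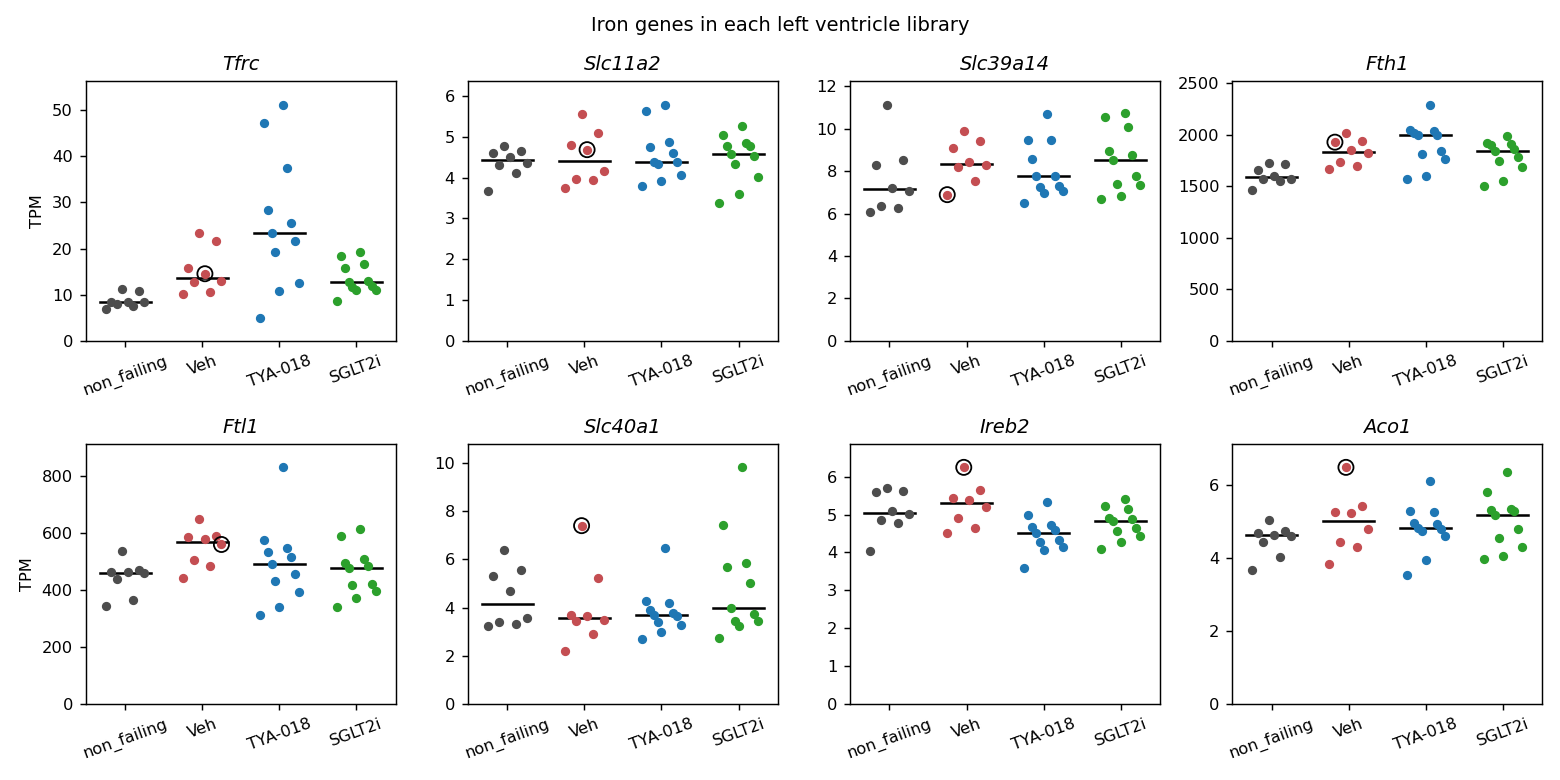
Level of each iron gene in TPM (linear axes from 0) in the 38 libraries, by group; points are mice, lines are group medians and the ring marks HFpEF+Veh V2523. The HFpEF+TYA-018 hearts spread widely for Tfrc, from 4.89 to 51.2 TPM, while the groups overlap for every member.

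Tfrc, on chromosome 16 (32608920 to 32632794, GRCm38), was higher in HFpEF+TYA-018 than in non_failing hearts. It measured 6.96 to 11.3 TPM in non_failing (median 8.36), 10.1 to 23.5 in HFpEF+Veh (median 13.7), 4.89 to 51.2 in HFpEF+TYA-018 (median 23.3) and 8.56 to 19.3 TPM in HFpEF+SGLT2i hearts (median 12.8). Of the 11 HFpEF+TYA-018 hearts, 9 lay above the highest non_failing heart and 5 above the highest vehicle heart, but V2555 had the lowest value of the series. The 3 highest were V2543 with 51.2, V2547 with 47.2 and V2546 with 37.5 TPM. The coefficient of variation was 57.3% in HFpEF+TYA-018 and 17.4%, 32.2% and 24.9% in the non_failing, vehicle and SGLT2i groups.

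The log2 fold change of Tfrc between HFpEF+TYA-018 and non_failing was 1.51 (SE 0.263, adjusted p 0.000229, higher in 10 of 11), a 2.84-fold level. With each library omitted in turn it passed in 38 of 38 fits, from 1.37 without V2547 to 1.61 without V2555. Counts of hearts in a direction, here and in what follows, compare each heart's log2 CPM with TMM scaling with the mean of the other group, and can differ from those in TPM. The difference to vehicle was 0.80 (SE 0.256, adjusted p 0.0886, higher in 8 of 11), which did not pass. It passed in 2 of the 38 fits, without V2555 (0.91, adjusted p 0.0209) and without V2570, and with DESeq2 (0.80, adjusted p 0.0468). The difference to HFpEF+SGLT2i was 0.87 (SE 0.232, adjusted p 0.103, higher in 9 of 11), and it passed with DESeq2 (0.88, adjusted p 0.0277).

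The Tfrc medians of vehicle and empagliflozin hearts lay between those of non_failing and HFpEF+TYA-018 hearts, while the ranges overlapped. All 8 vehicle hearts were above the non_failing mean, and 6 of 8 above the highest non_failing heart, and the log2 difference was 0.71 (SE 0.273, adjusted p 0.172). HFpEF+SGLT2i differed from non_failing by 0.63 (SE 0.256, adjusted p 0.144, higher in 10 of 11). Both passed when the fit held only the 2 groups compared, at adjusted p 0.0222 and 0.0149. In that fit the genes are filtered and the spread is estimated without the other groups. Between HFpEF+SGLT2i and vehicle the difference was -0.07, with a 95% interval from -0.58 to 0.44 (adjusted p 0.949). Without V2523 the vehicle median of Tfrc was 12.9 TPM and the difference of HFpEF+TYA-018 to vehicle 0.78 (adjusted p 0.106).

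Immature red cells also carry much Tfrc, so erythroid markers are given beside it. All 7 were higher in HFpEF+TYA-018 than in non_failing hearts, 2 of them called, with a median log2 fold change of 1.15. Against vehicle 2 of the 7 were higher, none called, with a median of -0.11. Against HFpEF+SGLT2i all 7 were higher, none called, with a median of 0.69. The 3 hearts with the highest Tfrc had erythroid sums of 15355 (V2543), 13910 (V2547) and 7065 TPM (V2546). The highest erythroid sum of the series, 41881 TPM in vehicle V2529, came with 21.6 TPM of Tfrc. The part of these cells in the Tfrc result was not tested.

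The other 2 uptake genes moved little. Slc11a2 (chromosome 15, 100387898 to 100425072), which passes iron from endosomes to the cytosol, measured 3.67 to 4.78 TPM in non_failing (median 4.42), 3.74 to 5.56 in HFpEF+Veh (4.42), 3.79 to 5.79 in HFpEF+TYA-018 (4.38) and 3.38 to 5.26 TPM in HFpEF+SGLT2i (4.57). Its lowest adjusted p over 6 comparisons was 0.26, for HFpEF+TYA-018 against vehicle, with a log2 fold change of 0.15 (95% interval 0.01 to 0.29, higher in 9 of 11). In TPM 5 of 11 were above the vehicle mean. Slc39a14 (chromosome 14, 70303469 to 70351425), which imports iron that is not bound to transferrin, measured 6.09 to 11.1 (median 7.14), 6.89 to 9.90 (8.36), 6.52 to 10.7 (7.75) and 6.67 to 10.7 TPM (8.54) in the same order. All 4 groups overlapped for both genes. The difference of Slc39a14 between HFpEF+SGLT2i and non_failing was 0.19 (95% interval -0.01 to 0.39, adjusted p 0.287, higher in 8 of 11).

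Ferritin heavy chain transcripts were modestly higher in HFpEF+TYA-018 than in non_failing hearts. Fth1 (chromosome 19, 9980598 to 9985098) measured 1464 to 1728 TPM in non_failing (median 1586), 1669 to 2019 in HFpEF+Veh (median 1834), 1572 to 2292 in HFpEF+TYA-018 (median 1993) and 1503 to 1990 TPM in HFpEF+SGLT2i hearts (median 1844). Above the highest non_failing heart were 9 of 11 HFpEF+TYA-018, 6 of 8 vehicle and 8 of 11 HFpEF+SGLT2i hearts. The log2 fold change between HFpEF+TYA-018 and non_failing was 0.32 (SE 0.0705, adjusted p 0.00359, higher in 10 of 11), a 1.25-fold level, and it passed in 38 of 38 fits with a library omitted. Fth1 was 0.23 higher than in vehicle (SE 0.0703, adjusted p 0.0729, higher in 10 of 11), which passed with DESeq2 (adjusted p 0.0317) and without V2570 (0.26, adjusted p 0.0234). In TPM 7 of 11 were above the vehicle mean. Against HFpEF+SGLT2i the difference was 0.18 (SE 0.0642, adjusted p 0.196), and vehicle and HFpEF+SGLT2i stood 0.08 (adjusted p 0.626) and 0.13 (adjusted p 0.292) above non_failing.

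Ftl1 (chromosome 7, 45457944 to 45459884), the light chain, passed in no comparison. It measured 342.5 to 535 TPM in non_failing (median 459.7), 442 to 649 in HFpEF+Veh (median 569), 313 to 830.2 in HFpEF+TYA-018 (median 491) and 339 to 614 TPM in HFpEF+SGLT2i (median 477). The highest value was that of V2555, the heart with the least Tfrc and the most Fth1. The difference between HFpEF+TYA-018 and non_failing was 0.21 (95% interval -0.05 to 0.47, adjusted p 0.359), and 0.089 without V2555 (adjusted p 0.714). That between vehicle and non_failing was 0.19 (adjusted p 0.537). Read sharing limits these values. Estimated counts had fractions, beyond a tolerance of 0.01, in 38 of 38 libraries for Fth1 and 36 for Ftl1. The numbers were 28 for Ireb2 and 9 for Tfrc. The ferritin copies found among the genes listed had at most 5 counts. Ftl1-ps1, Ftl1-ps2, Fth-ps1 and Fth-ps3 were not found there, so their share of reads could not be checked.

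**Figure D2:**
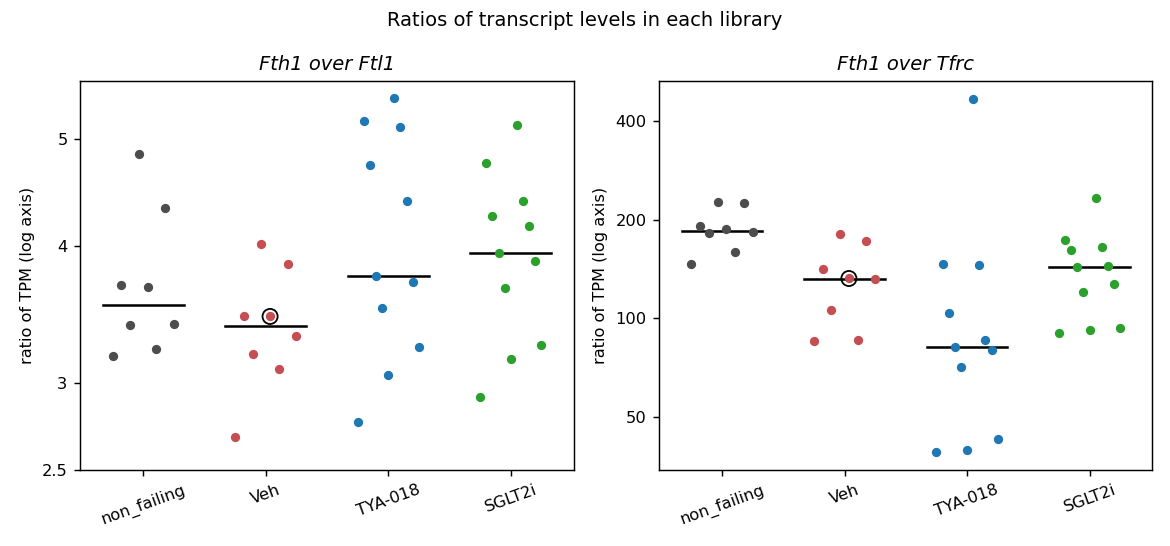
Ratio of TPM of Fth1 to Ftl1 and of Fth1 to Tfrc in each library (log axes), by group; points are mice, lines are group medians and the ring marks HFpEF+Veh V2523. Fth1 exceeded Tfrc by 146 to 227 times in non_failing hearts and by 39.2 to 469 times in HFpEF+TYA-018 hearts.

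Ratios within a library showed how unevenly storage and uptake transcripts stood. Fth1 was 3.53 times Ftl1 in the median non_failing heart (3.18 to 4.85), 3.38 times in HFpEF+Veh (2.68 to 4.01), 3.75 times in HFpEF+TYA-018 (2.76 to 5.45) and 3.93 times in HFpEF+SGLT2i (2.91 to 5.15), and the groups overlapped. Fth1 was 185 times Tfrc in the median non_failing heart (146 to 227). It was 132 times Tfrc in HFpEF+Veh (85.3 to 182), 81.6 times in HFpEF+TYA-018 (39.2 to 469) and 144 times in HFpEF+SGLT2i hearts (90.4 to 232). The highest HFpEF+TYA-018 ratio was that of V2555. These ratios are descriptions with no test.

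Ferroportin, the product of Slc40a1 (chromosome 1, 45908068 to 45926523), is the known exporter of iron from cells and is abundant in macrophages. Slc40a1 measured 3.24 to 6.41 TPM in non_failing (median 4.13), 2.19 to 7.41 in HFpEF+Veh (median 3.57), 2.70 to 6.48 in HFpEF+TYA-018 (median 3.68) and 2.73 to 9.83 TPM in HFpEF+SGLT2i hearts (median 3.98). The highest vehicle value was that of V2523, and the vehicle median without it was 3.49 TPM. HFpEF+SGLT2i was 0.40 above vehicle (95% interval -0.03 to 0.83, adjusted p 0.531, higher in 7 of 11, and in 5 of 11 in TPM). It was 0.56 above vehicle without V2523 (adjusted p 0.316) and 0.25 without V2563, the HFpEF+SGLT2i heart with 9.83 TPM. HFpEF+TYA-018 was 0.38 below HFpEF+SGLT2i (log2 fold change -0.38, 95% interval -0.77 to 0.01, adjusted p 0.397, lower in 10 of 11), and -0.23 without V2563 (adjusted p 0.654). No comparison passed, and the groups overlapped in all. Of the 11 macrophage markers none was called in the 6 comparisons, while against non_failing all 11 were positive in vehicle (median 0.26) and in HFpEF+SGLT2i (median 0.20), and 9 in HFpEF+TYA-018 (median 0.17). In HFpEF+SGLT2i against vehicle 3 markers were positive (median -0.060), and in HFpEF+TYA-018 against HFpEF+SGLT2i 5 were (median -0.011). Their part in the levels of Slc40a1 was not tested.

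Ireb2 (chromosome 9, 54863789 to 54912530), which encodes iron regulatory protein 2, measured 4.05 to 5.70 TPM in non_failing (median 5.06), 4.53 to 6.25 in HFpEF+Veh (median 5.30), 3.60 to 5.33 in HFpEF+TYA-018 (median 4.53) and 4.09 to 5.40 TPM in HFpEF+SGLT2i (median 4.82). In 6 of 11 HFpEF+TYA-018 hearts it was below the lowest vehicle heart. The difference to vehicle was -0.14 (SE 0.0567, adjusted p 0.165, lower in 9 of 11) and that to non_failing -0.15 (SE 0.0567, adjusted p 0.104, lower in 9 of 11). Both passed when libraries were scaled by library size alone, at -0.27 (adjusted p 0.0135) and -0.21 (adjusted p 0.0497). The median over all genes then shifted by -0.129 and -0.0584 in these comparisons, so relative to all genes the difference to vehicle was close to that with TMM.

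Aco1 (chromosome 4, 40143081 to 40198338) encodes cytosolic aconitase, which becomes iron regulatory protein 1 when it loses its iron-sulfur cluster. It measured 3.67 to 5.04 TPM in non_failing (median 4.62), 3.83 to 6.49 in HFpEF+Veh (median 5.02), 3.53 to 6.12 in HFpEF+TYA-018 (median 4.83) and 3.98 to 6.38 TPM in HFpEF+SGLT2i hearts (median 5.17). The difference between HFpEF+SGLT2i and non_failing was 0.13 (95% interval -0.05 to 0.30, adjusted p 0.45), and 0.075 without V2562 (adjusted p 0.642). That between HFpEF+SGLT2i and vehicle was 0.10, and 0.15 without V2523 (adjusted p 0.541). V2523 had the highest vehicle value of Ireb2, Aco1 and Slc40a1, and the vehicle median of Aco1 without it was 4.81 TPM. Without it the vehicle medians of the members not yet given were 4.15 TPM for Slc11a2, 8.43 for Slc39a14, 1821 for Fth1, 579.7 for Ftl1 and 5.21 TPM for Ireb2.

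**Figure D3:**
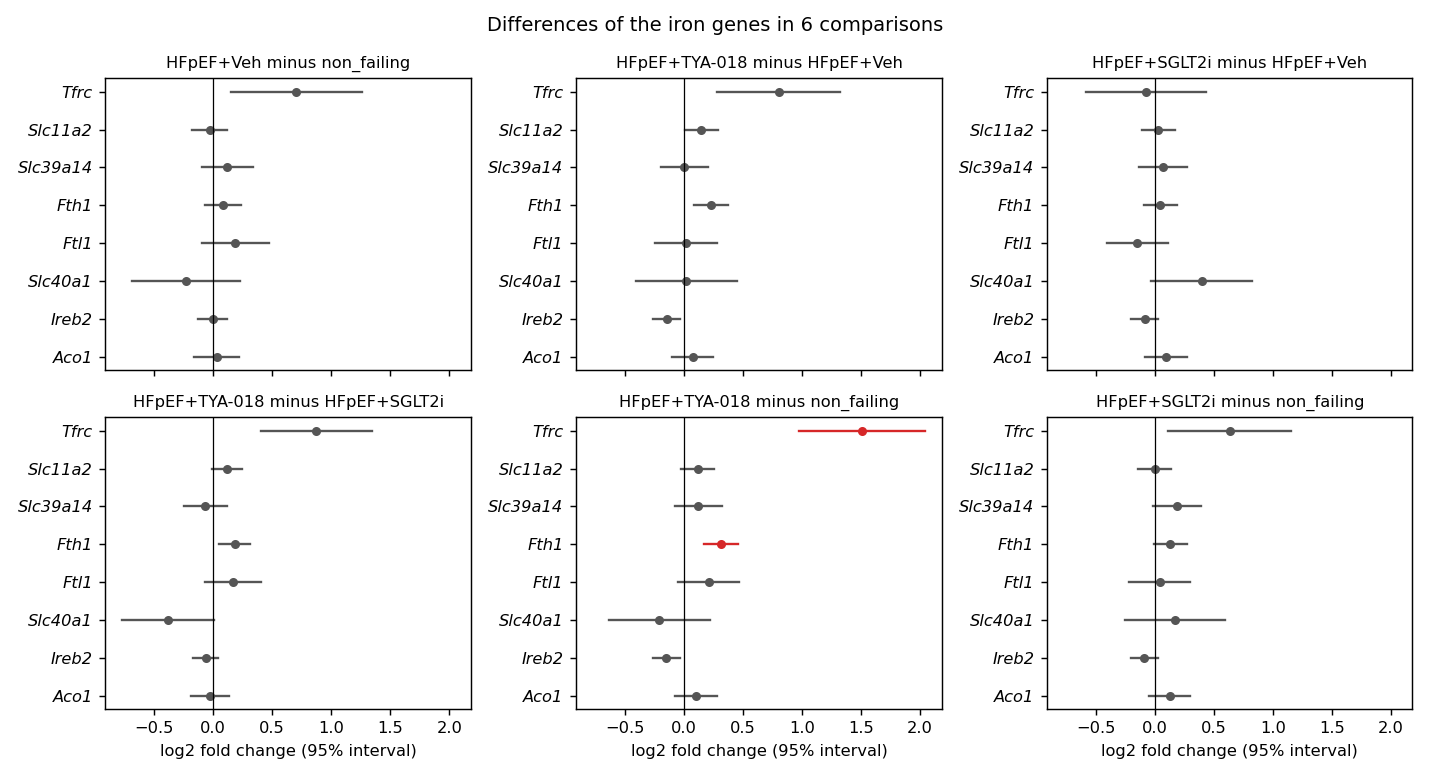
Log2 fold change of each iron gene in 6 comparisons, with 95% intervals from edgeR; red marks an adjusted p under 0.05. Tfrc and Fth1 pass between HFpEF+TYA-018 and non_failing hearts, at 1.51 and 0.32, and no member passes in the other panels.

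Over the members, 2 of 8 were called between HFpEF+TYA-018 and non_failing, both higher, where 7.39% of all genes tested were called and 4.00% were called higher. With edgeR on all 4 groups and TMM scaling, the other comparisons called none of the 8. Between vehicle and non_failing 3.15% of all genes were called, and 1 member and 2185 of the 13765 genes tested had an unadjusted p under 0.05. DESeq2 and limma called 0 members in this comparison, and edgeR on the 2 groups alone called 1 (Tfrc, beside 2.59%). Between HFpEF+TYA-018 and vehicle 1.93% were called, and 4 members and 2404 genes had an unadjusted p under 0.05. DESeq2 called 2 members (Tfrc and Fth1, beside 2.92% of all genes), edgeR with library size alone 1 (Ireb2, beside 7.96%) and limma 0. Between HFpEF+SGLT2i and vehicle 0.850% were called, and no member but 1383 genes had an unadjusted p under 0.05. DESeq2 and limma called 0 members. Between HFpEF+SGLT2i and non_failing 6.45% were called, and 1 member and 2703 genes had an unadjusted p under 0.05. DESeq2 and limma called 0 members there, and edgeR on the 2 groups alone called 1 (Tfrc, beside 6.08%). Between the drugs 0% of genes passed with edgeR, 1821 had an unadjusted p under 0.05 and DESeq2 called 185 (1.34%), Tfrc among them, while limma called 0. The median log2 fold change of the 8 was 0.12 between HFpEF+TYA-018 and non_failing and 0.04 between HFpEF+SGLT2i and vehicle, beside 0.01 for all genes in both. Comparisons that share a group are not independent of each other.

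The wider pathway was read from lists of 84 genes, members included, of which 77 were tested. Called genes numbered 12 of 77 (15.6%, beside 7.39% of all genes) between HFpEF+TYA-018 and non_failing, 10 higher and 2 lower. They numbered 9 (11.7%, beside 1.93%) between HFpEF+TYA-018 and vehicle and 5 (6.49%, beside 3.15%) between vehicle and non_failing. They numbered 4 (5.19%, beside 6.45%) between HFpEF+SGLT2i and non_failing, 3 (3.90%, beside 0.850%) between HFpEF+SGLT2i and vehicle and 0 between the drugs. The last count was 2 with DESeq2. Several of the calls against vehicle rest on V2523, as given with the liver genes.

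Reduction of iron in endosomes is the role of Steap3. It measured 3.99 to 6.15 TPM in non_failing (median 5.29) and 5.31 to 7.75 TPM in HFpEF+TYA-018 hearts (median 6.56). Against non_failing the difference was 0.44 (SE 0.0922, adjusted p 0.00211), and against vehicle 0.34 (SE 0.0919, adjusted p 0.0448), both in 11 of 11 hearts. In TPM 8 of 11 were above the vehicle mean. The second call held in 21 of 38 fits with a library omitted, and its adjusted p reached 0.111 without V2530. It was also lost with library size alone (0.20, adjusted p 0.178) and limma (0.15, adjusted p 0.285). The same held with a length offset (0.31, adjusted p 0.0728) and the 2 groups alone (0.335, adjusted p 0.0822). Steap4, another metalloreductase, fell by 0.36 in HFpEF+TYA-018 (adjusted p 0.0307, lower in 11 of 11) and by 0.36 in HFpEF+SGLT2i against non_failing (adjusted p 0.0373, lower in 10 of 11), and was -0.38 in vehicle (adjusted p 0.0653). The call in HFpEF+TYA-018 was lost without V2502, V2503, V2550, V2552 or V2559 (adjusted p up to 0.0827, without V2503), with a length offset (0.0858) and with limma (0.0908). That in HFpEF+SGLT2i was lost without V2501, V2502, V2503, V2504, V2561, V2565, V2571, V2572, V2574 or V2575 (up to 0.0942, without V2503), with library size alone (0.0728), no filter (0.0535) and limma (0.0912). Lrp1, the receptor that takes up heme bound to hemopexin among many ligands, rose in vehicle (0.38, adjusted p 0.0129, higher in 8 of 8, and in 7 of 8 in TPM) and in HFpEF+SGLT2i (0.30, adjusted p 0.0286, higher in 11 of 11, and in 9 of 11 in TPM) against non_failing. The first call was lost with a length offset (0.30, adjusted p 0.168), limma (0.0876) and the 2 groups alone (0.0525). The second call was lost without V2501, V2502, V2504, V2507 or V2572 (adjusted p up to 0.0782, without V2501), with library size alone (0.0957), a length offset (0.21, adjusted p 0.300) and limma (0.379). The heme transporter Slc48a1 rose by 0.26 in HFpEF+TYA-018 against non_failing (adjusted p 0.00184, higher in 11 of 11), a call lost with limma (0.20, adjusted p 0.0616). Flvcr2, listed under its older symbol Mfsd7c and at most 0.825 TPM, fell by 0.77 in vehicle against non_failing (adjusted p 0.0252, lower in 8 of 8), a call lost without V2501, V2502, V2504, V2528, V2529 or V2530 (adjusted p up to 0.0647, without V2530) and with library size alone (-0.70, adjusted p 0.0561).

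Most genes of mitochondrial iron and iron-sulfur cluster assembly had positive log2 fold changes under TYA-018, few of them called. Against vehicle, 21 of 23 tested had a positive log2 fold change, with a median of 0.19 beside -0.01 for all genes, and 2 (8.70%) were called, both higher, beside 1.93% of all genes. In the same comparison 6 of 7 cardiomyocyte markers were positive, with a median of 0.20 and no call. Of 6 fibroblast markers 0 were positive, with a median of -0.23 and no call. The part of these cells in the result was not tested. Isca2 measured 22.3 to 36.4 TPM in HFpEF+Veh (median 30.7) and 26.2 to 43.1 TPM in HFpEF+TYA-018 hearts (median 35.7), a difference of 0.41 (SE 0.0994, adjusted p 0.0214) seen in 11 of 11 hearts, and in 10 of 11 in TPM. Bola3, a cluster assembly factor, measured 135 to 202 and 149 to 197 TPM (medians 161 and 180.5) and rose by 0.29 (adjusted p 0.0323, higher in 11 of 11, and in 10 of 11 in TPM). The Isca2 call was lost without V2527 or V2530, and the Bola3 call without V2527, V2529, V2530, V2532, V2547, V2552 or V2555. Their adjusted p reached 0.0622 and 0.0886, both without V2530. Both calls held without V2523, at 0.45 (adjusted p 0.03) and 0.32 (adjusted p 0.0347). With library size alone as the scaling the 2 genes were at 0.28 (adjusted p 0.0669) and 0.16 (adjusted p 0.159). Both were also lost with a length offset (0.37 and 0.25, adjusted p 0.0636 and 0.063) and limma (0.24 and 0.11, adjusted p 0.164 and 0.289). The same held with the 2 groups alone (0.41 and 0.29, adjusted p 0.0522 and 0.0752).

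Against non_failing, 19 of the 23 were positive in HFpEF+TYA-018, with a median of 0.10, and 3 (13.0%) were called higher, beside 4.00% of all genes. These were Bola3 (0.28, adjusted p 0.0173), the glutaredoxin Glrx5 (0.24, adjusted p 0.044) and the ferredoxin Fdx2, listed as Fdx1l (0.24, adjusted p 0.0423). Of the 7 cardiomyocyte markers 1 was positive in this comparison, with a median of -0.16 and no call. Glrx5 was called in 26 and Fdx1l in 25 of 38 fits with a library omitted, and their adjusted p reached 0.107 without V2507 and 0.106 without V2510. Both were lost with library size alone (adjusted p 0.188 and 0.123), a length offset (0.0840 and 0.0509), no filter (0.0634 and 0.0573) and limma (0.241 and 0.0980). Bola3 was not called here with library size alone (adjusted p 0.0598) or limma (0.074). In HFpEF+SGLT2i hearts 20 of the 23 were positive against vehicle, with a median of 0.11 and no call, and 12 of 23 against non_failing, with a median of 0.02 and no call. In HFpEF+SGLT2i against vehicle 6 of 7 cardiomyocyte markers (median 0.06) and 1 of 6 fibroblast markers (median -0.22) were positive. None of these markers was called, and their part was not tested. In vehicle hearts 19 of the 23 were negative against non_failing, with a median of -0.15 and no call. There all 7 cardiomyocyte markers were negative, 3 of them called lower, with a median of -0.34, and 2 of 6 fibroblast markers were called higher. Their part in the result was not tested. With library size alone as the scaling, the median of all genes moved by -0.129 in HFpEF+TYA-018 against vehicle, so these medians are relative to TMM scaling.

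Of 18 genes of heme synthesis and breakdown, 2 were called against non_failing in vehicle (11.1%, beside 3.15% of all genes), 3 in HFpEF+TYA-018 (16.7%, beside 7.39%) and 1 in HFpEF+SGLT2i (5.56%, beside 6.45%), all higher. The vehicle count includes Hpx, given with the liver genes. In the same comparisons all 7 erythroid markers were positive, with medians of 1.29, 1.15 and 0.40, and 2 were called, both in HFpEF+TYA-018. Alas2 is on both lists. The part of red cells in the result was not tested. Abcb6, a porphyrin transporter, measured 6.27 to 10.4 TPM in non_failing (median 9.23), 9.61 to 13.4 in HFpEF+Veh (median 12.5), 9.32 to 19.4 in HFpEF+TYA-018 (median 11.5) and 9.10 to 13.7 TPM in HFpEF+SGLT2i (median 12.6). It rose in all 3, by 0.32 in vehicle (adjusted p 0.00456, higher in 8 of 8), 0.48 in HFpEF+TYA-018 (adjusted p 2.16e-06, higher in 11 of 11) and 0.45 in HFpEF+SGLT2i (adjusted p 6.63e-06, higher in 11 of 11). The vehicle call was lost with a length offset (0.35, adjusted p 0.0781). Alad, an early enzyme of heme synthesis, rose by 0.30 in HFpEF+TYA-018 (adjusted p 0.012, higher in 10 of 11), and Tmem14c, a mitochondrial porphyrin carrier, by 0.31 (adjusted p 0.00442, higher in 11 of 11, and in 10 of 11 in TPM). Alad was not called with library size alone (adjusted p 0.0644) or limma (0.0794), nor Tmem14c with limma (0.0743). Alas1, the housekeeping form of the first enzyme, was 0.65 above vehicle in HFpEF+TYA-018 (adjusted p 0.0959).

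**Figure D4:**
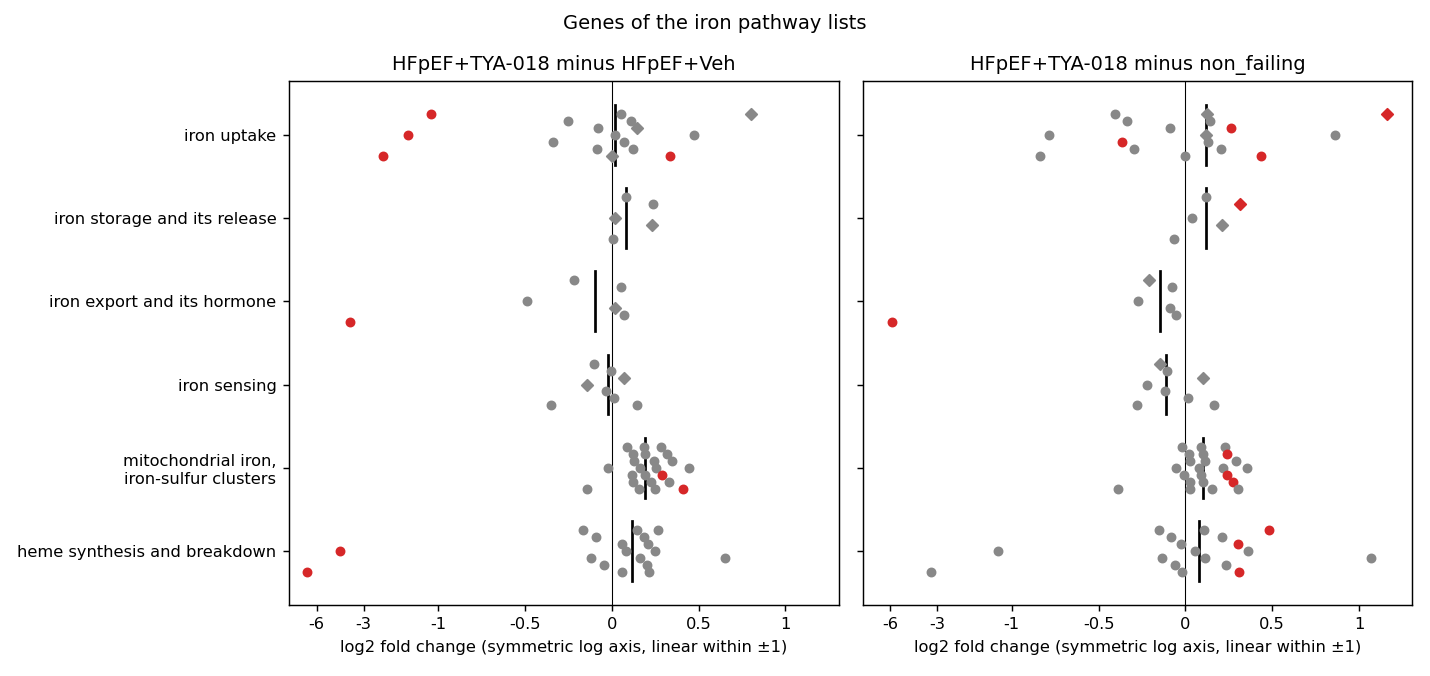
Log2 fold change of 77 iron pathway genes by list, for HFpEF+TYA-018 against HFpEF+Veh and against non_failing (axis linear within 1 of 0 and logarithmic beyond); diamonds are the 8 members, red marks an adjusted p under 0.05 and lines are list medians. Against vehicle, 21 of 23 mitochondrial iron and iron-sulfur cluster genes lie above 0.

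The regulators Ncoa4, Fbxl5 and Epas1 did not pass. Ncoa4, which delivers ferritin to lysosomes, ranged from 9.69 to 21.1 TPM with a lowest adjusted p of 0.627 over the 6 comparisons. Fbxl5, which marks iron regulatory protein 2 for degradation, ranged from 5.03 to 11.0 TPM with a lowest adjusted p of 0.143, for HFpEF+TYA-018 against non_failing (-0.28). Epas1, the hypoxia factor HIF-2 alpha, ranged from 40.8 to 81.0 TPM with a lowest adjusted p of 0.278.

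Iron proteins that the liver secretes were called in 5 of the 6 comparisons, and hepatocyte markers are given beside them. Hamp, which encodes hepcidin, measured 0.963 to 16.4 TPM in non_failing (median 2.65), 0 to 8.92 in HFpEF+Veh (median 0.212), 0 to 0.262 in HFpEF+TYA-018 (median 0) and 0 to 0.676 TPM in HFpEF+SGLT2i (median 0). It had no count in 3 of 8, 7 of 11 and 6 of 11 libraries of the HFpEF groups. Both drug groups, and the 7 vehicle hearts other than V2523 (0 to 0.542 TPM), lay wholly below the non_failing hearts. In the comparisons of the drug groups with non_failing 7.39% and 6.45% of all genes were called, and 4.49% in that of vehicle without V2523. The share of all genes whose groups did not overlap is not given. Against non_failing, the log2 fold change of Hamp was -5.81 in HFpEF+TYA-018 (SE 0.924, adjusted p 6.59e-05) and -5.53 in HFpEF+SGLT2i (SE 0.9, adjusted p 8.99e-05). In vehicle it was -2.17 (adjusted p 0.144) with V2523 and -4.56 (adjusted p 0.000373) without it. With limma and V2523 kept it was -1.61 (adjusted p 0.00712). In the drug groups against non_failing 12 and 11 of the 12 hepatocyte markers were called lower, with medians of -6.02 and -4.99. Hamp in HFpEF+SGLT2i against vehicle was -3.36 (adjusted p 0.0751), and -0.98 (adjusted p 0.697) without V2523. It passed with library size alone (adjusted p 0.0485) and no filter (adjusted p 0.043).

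Vehicle V2523 had 8.92 TPM of Hamp, 185 TPM of transferrin (Trf), 191 TPM of hemopexin (Hpx), 144 TPM of haptoglobin (Hp) and 95.5 TPM of lipocalin 2 (Lcn2). The next vehicle values were 0.542, 22.6, 0.712, 1.21 and 4.31 TPM. The calls of lower Trf in HFpEF+TYA-018 (-1.55, adjusted p 0.0214) and in HFpEF+SGLT2i (-1.54, adjusted p 0.0344) against vehicle became -0.19 (adjusted p 0.535) and -0.18 (adjusted p 0.701) without V2523. Lower Hpx (-6.87 and -6.49) became -0.75 (adjusted p 0.424) and -0.33 (adjusted p 0.831), and lower Hp (-4.27 and -3.54) became 0.14 (adjusted p 0.889) and 0.89 (adjusted p 0.506). Lower Hamp, Lcn2 and Steap2 in HFpEF+TYA-018 (-3.64, -2.26 and -1.11) became -1.24 (adjusted p 0.459), 0.27 (adjusted p 0.722) and -0.39 (adjusted p 0.331). Against non_failing, Hpx in vehicle turned from 3.60 (adjusted p 0.0434) to -2.52 (adjusted p 0.00385), Lcn2 went from 3.12 (adjusted p 0.00873) to 0.60 (adjusted p 0.427), and Trf from 0.76 (adjusted p 0.362) to -0.59 (adjusted p 0.0498). Without V2523 the pathway calls were 3 of 77 (3.90%, beside 1.42% of all genes in that fit) between HFpEF+TYA-018 and vehicle. They were 0 (beside 0.0145%) between HFpEF+SGLT2i and vehicle and 9 (11.7%, beside 4.49%) between vehicle and non_failing.

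**Figure D5:**
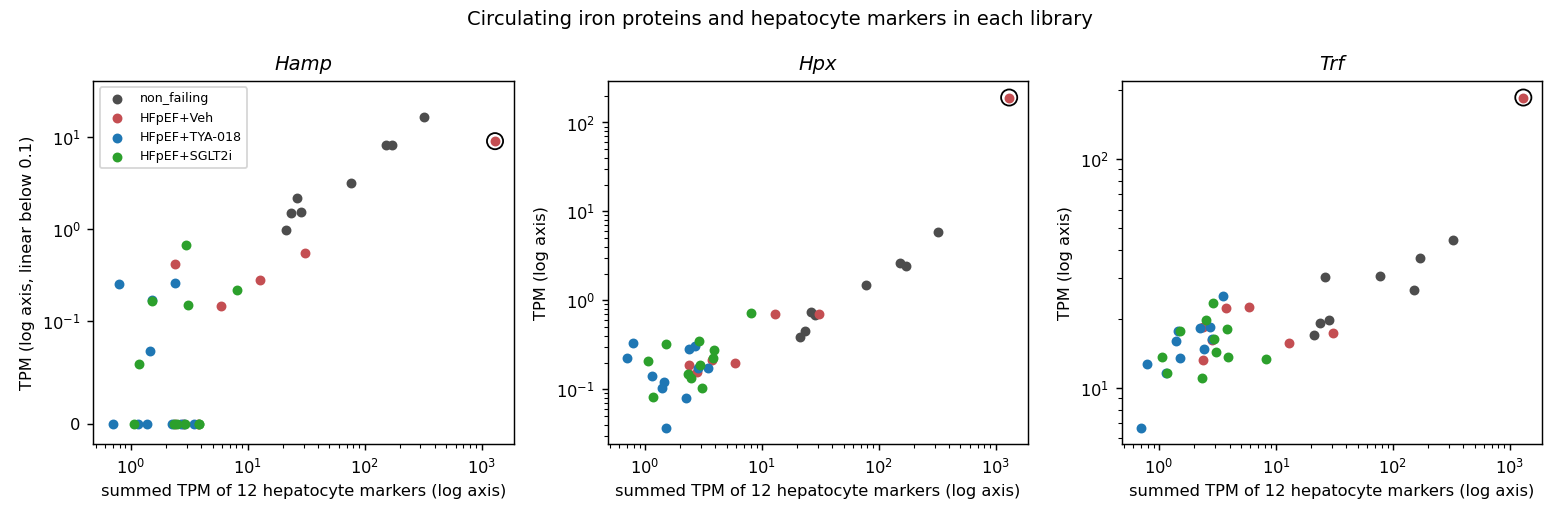
Levels of Hamp, Hpx and Trf in TPM against the summed TPM of 12 hepatocyte markers in each of 38 libraries (log axes, linear below 0.1 TPM for Hamp); colours are groups and the ring marks HFpEF+Veh V2523. The ringed library lies at 1305 TPM of hepatocyte markers, and the non_failing hearts at 21.3 to 324 TPM.

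Transferrin in the remaining hearts measured 17.1 to 44.3 TPM in non_failing (median 28.6), 13.2 to 22.6 in the 7 other vehicle hearts (median 17.3), 6.69 to 25.1 in HFpEF+TYA-018 (median 16.0) and 11.1 to 23.5 TPM in HFpEF+SGLT2i hearts (median 14.3). Against non_failing both drug groups were lower in 11 of 11 hearts, by -0.79 (adjusted p 0.214) and -0.77 (adjusted p 0.251). Both passed with DESeq2 (adjusted p 5.89e-05 and 9.05e-05) and with edgeR on the 2 groups alone (adjusted p 0.00778 and 0.00465). Without V2523 the same differences were -0.78 (adjusted p 0.00106) and -0.77 (adjusted p 0.00125). The part of liver transcripts in these differences was not tested.

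The deposited effective lengths are means over the transcripts behind each gene in each library. Per the methods they were estimated with options for sequence, GC and position bias, so they are not plain transcript lengths. For Tfrc the median was 1922 bases in non_failing, 1889 in HFpEF+Veh, 1766 in HFpEF+TYA-018 and 1907 bases in HFpEF+SGLT2i. Relative to the median of all genes, the length of Tfrc in HFpEF+TYA-018 differed from vehicle by -4.70% (log2 difference -0.07, adjusted p 0.0708), which did not pass. Slc40a1 was shorter, by -4.59% against vehicle (log2 difference -0.07, adjusted p 0.0466) and -3.96% against HFpEF+SGLT2i (-0.06, adjusted p 0.0421), where 1.46% and 2.80% of all genes were called by the same test. Without centring on each library, the first of these was -0.09 with an adjusted p of 0.768. A mean length does not name a transcript.

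Genes whose levels ran most alike over the 38 libraries are given as descriptions, from log2 CPM, counts relative to the library total, of 10922 other genes. Depth, tissue sampling and RNA handling are shared by all points. For Tfrc they were Pfkl (r = 0.71, rho = 0.74), a phosphofructokinase, Nmrk2 (r = 0.68, rho = 0.53) and Alas1 (r = 0.66, rho = 0.47). Without V2547 and V2543, the 2 hearts farthest from the median, r was 0.64, 0.55 and 0.53, and with group means subtracted 0.56, 0.61 and 0.75. Slc11a2 ran with Actc1 (r = 0.79, rho = 0.70), Alas1 (r = 0.79, rho = 0.67) and Mpi (r = 0.77, rho = 0.73), and r stayed between 0.70 and 0.74 without the same 2 hearts.

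Among the genes most like the ferritin chains were ribosomal protein genes. Fth1 was most like Rps2 (r = 0.88, rho = 0.84), Ufc1 (r = 0.84, rho = 0.76) and Fam195a (r = 0.83, rho = 0.81), and Ftl1 most like Rps19, Rps21 and Rps20 (r = 0.88, 0.88 and 0.87, rho = 0.85, 0.84 and 0.83). Without V2555 and V2562, r of Ftl1 was 0.81, 0.80 and 0.81. For Slc40a1 they were Rnf114, Nadk2 and Klhdc1 (r = 0.81, 0.81 and 0.76), for Aco1 Chmp4b, Scp2 and Lonp2 (r = 0.89, 0.86 and 0.86), for Slc39a14 Fkbp5, Limk1 and Bcl2l1 (r = 0.79, 0.77 and 0.73) and for Ireb2 Hook3, C1galt1 and Rsbn1 (r = 0.67, 0.66 and 0.65). Among the members themselves, Tfrc and Slc11a2 ran together (r = 0.64, rho = 0.50, and r = 0.64 with group means subtracted). Slc11a2 ran against Ftl1 (r = -0.60, rho = -0.60, and r = -0.74 with group means subtracted). For Tfrc and Ftl1 rho was weaker than r (r = -0.34, rho = -0.16, and r = -0.65 with group means subtracted). Fth1 and Ftl1 had r = 0.50 and rho = 0.30. V2555 had the lowest Tfrc and the highest Fth1 and Ftl1 of the series, and these pairs are not given without it.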

How the data were processed

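RNA was captured by its polyA tail with a stranded kit from left ventricle tissue of 38 mice and sequenced on an Illumina instrument. Per the labels and the methods, the authors quantified transcripts of GRCm38 with Salmon (version 1.6.0 in the submitters' processing notes) and summed them to genes. The labels and the methods differ on sex, read layout, genome name and length of treatment, and none of these entered a test. The deposited expected counts are estimated reads per gene, 21451631 to 59280407 per library. The deposited TPM values were scaled by the authors per transcript length. The deposited effective lengths are given in bases. Columns that matched no sample numbered 0.

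Groups came from the sample titles. No label says whether libraries share a batch or litter, so a batch or litter that follows the groups cannot be told apart from them. The p-values set each group difference against the spread between these mice. Expected counts were rounded, filtered with filterByExpr (13765 of 29564 genes), scaled by TMM and tested with the quasi-likelihood F test of edgeR 4.0.16 (R 4.3.3) in 1 model of 4 groups for 6 comparisons. P-values were adjusted over all genes with the Benjamini-Hochberg method, and calls needed an adjusted p under 0.05. SE is the log2 fold change over the root of F. Libraries in a direction are those of the first group beyond the mean of the second in log2 CPM with TMM scaling. Effective lengths were tested with limma 3.58.1 after subtracting each library's median deviation. Scripts were tested on simulated data.

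Alternatives were DESeq2 1.42.0 (which replaces single counts it finds outlying), limma on log2(TPM + 1), library size alone, a length offset, no filter, the 2 groups compared alone, and each library left out. Members and lists were chosen with earlier results of these data known. Named genes are the 8 members, each called gene of the iron lists, Ncoa4, Fbxl5, Hamp, Epas1 and Trf, and per member the 3 genes with the highest r of log2 CPM (prior count 2, average log2 CPM of at least 1). Alas1 was also named in the text on heme, after its value was seen. Of the 84 list genes, 7 were not tested: Tfr2, Steap1, Slc22a17, Ftmt, Hephl1, Hamp2 and Tmprss6. Marker lists of cardiomyocytes, hepatocytes, erythroid cells and macrophages are given as sums. Those of endothelial cells and fibroblasts ranged from 1375 to 3883 and from 166 to 582 TPM.

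Some results of the hairpin search are not reported here.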

Additional observations from a re-analysis of the deposited data

Results flagged for a closer look

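The 8 members, the called genes of the iron lists, Ncoa4, Fbxl5, Hamp, Epas1 and Trf were searched for a library far from the rest. The search covered the non_failing and vehicle groups, and the drug groups of 11 were not tested. Of 58 groups 11 held such a library. Chance flags about 1 in 20 groups, but several of these genes were named because their calls rest on V2523, so the count cannot be read against that. No library of the 8 iron genes was far out in the 2 groups tested. Vehicle V2523 lay far above the other 7 vehicle hearts for Hpx (190.6 TPM, next 0.712), Trf (185 TPM, next 22.6), Hp (144 TPM, next 1.21), Lcn2 (95.5 TPM, next 4.31), Hamp (8.92 TPM, next 0.542) and Steap2 (0.953 TPM, next 0.310). Non_failing V2504, the highest of its group in hepatocyte markers, lay far above for Hamp (16.4 TPM, next 8.18), Hpx (5.94 TPM, next 2.66) and Hp (5.30 TPM, next 2.68). Non_failing V2507 lay far below for Slc48a1 (12.7 TPM, next 14.6) and Alad (21.3 TPM, next 27.3). The part of liver transcripts in these values was not tested.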

How the results depend on the processing

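No paired analysis was possible because mouse numbers differ in every group. Tfrc and Fth1 were called between HFpEF+TYA-018 and non_failing in every alternative run. The members called numbered 1 (Tfrc) between vehicle and non_failing and 1 (Tfrc) between HFpEF+SGLT2i and non_failing with the 2 groups alone. Between HFpEF+TYA-018 and vehicle they numbered 2 with DESeq2, 1 (Ireb2) with library size alone and 0 to 2 when a library was left out. Between the drugs DESeq2 called 1. Iron pathway calls (5, 9, 3, 0, 12 and 4 in the order vehicle against non_failing, TYA-018 and SGLT2i against vehicle, TYA-018 against SGLT2i, TYA-018 and SGLT2i against non_failing) became 8, 9, 0, 2, 17 and 9 with DESeq2, beside 4.35%, 2.92%, 0.835%, 1.34%, 9.24% and 8.20% of all genes. They became 3, 0, 0, 0, 5 and 2 with limma (3.48%, 1.70%, 0%, 0%, 3.68% and 3.72% of all genes), 3, 1, 0, 0, 15 and 7 with the 2 groups alone (2.59%, 0.437%, 0.0226%, 0%, 7.27% and 6.08%) and 6, 9, 4, 0, 9 and 2 with library size alone (3.47%, 7.96%, 1.08%, 0%, 6.57% and 4.77%). They became 3, 4, 2, 0, 9 and 3 with a length offset (3.17%, 1.39%, 0.792%, 0.0363%, 6.18% and 5.88%) and 4, 9, 4, 0, 10 and 3 with no filter (1.91%, 2.83%, 2.09%, 0%, 4.46% and 4.15%). With a library left out they ranged from 3 to 9, 3 to 11, 0 to 5, 0 to 0, 9 to 15 and 2 to 6. The causes were not tested.

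The 8 members changed sign only where no call was made, while Hpx in vehicle against non_failing and Lcn2 and Hp against vehicle were called before they changed sign. With library size alone, against non_failing in vehicle, Slc11a2 was 0.039 and Ireb2 0.063. Against vehicle in HFpEF+TYA-018, Slc39a14 was -0.12, Ftl1 -0.11, Slc40a1 -0.12 and Aco1 -0.057, and in HFpEF+SGLT2i, Slc11a2 was -0.048, Slc39a14 -0.0012 and Fth1 -0.032. In these comparisons the median of all genes moved by 0.070, -0.129 and -0.077, and with limma by 0.071, -0.100 and -0.072. Signs of values this near 0 are thus relative to the scaling. With limma in the same order, Slc11a2 was 0.027, Ireb2 0.039, Trf -0.16 and Hpx -0.00051, then Slc39a14 -0.068, Ftl1 -0.19, Slc40a1 -0.012 and Aco1 -0.035, then Slc11a2 -0.0064, Slc39a14 -0.0023 and Fth1 -0.035, and Slc11a2 in HFpEF+SGLT2i against non_failing was 0.021. With DESeq2, Trf (-0.59) and Hpx (-2.55) in vehicle, Lcn2 (0.28) and Hp (0.095) in HFpEF+TYA-018 and Hp (0.13) in HFpEF+SGLT2i against vehicle changed sign. With no filter, Ireb2 was 0.0019 in vehicle, Slc39a14 -0.0058 in HFpEF+TYA-018 against vehicle and Slc11a2 0.00028 in HFpEF+SGLT2i against non_failing. With a length offset, Ftl1 was -0.020 in HFpEF+TYA-018 against vehicle and Slc11a2 0.020 in HFpEF+SGLT2i against non_failing.

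With a library left out, values crossed 0 in vehicle against non_failing for Slc11a2 (-0.064 to 0.0022), Ireb2 (-0.021 to 0.035), Aco1 (-0.025 to 0.061), Trf (-0.59 to 0.89) and Hpx (-2.52 to 4.14). They did so in HFpEF+TYA-018 against vehicle for Slc39a14 (-0.038 to 0.053), Ftl1 (-0.092 to 0.062), Slc40a1 (-0.087 to 0.18), Lcn2 (-2.50 to 0.27) and Hp (-4.46 to 0.14), and in HFpEF+SGLT2i against vehicle for Tfrc (-0.15 to 0.011), Slc11a2 (-0.0025 to 0.064) and Hp (-4.25 to 0.89). Aco1 between the drugs ranged from -0.052 to 0.028 and Slc11a2 in HFpEF+SGLT2i against non_failing from -0.025 to 0.025.

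Calls over all genes between HFpEF+TYA-018 and vehicle numbered 266, 43.2% of them higher. They numbered 1096 (2.28% higher) with library size alone, 618 (20.4%) with no filter, 402 (54.0%) with DESeq2, 234 (2.56%) with limma, 192 (35.4%) with a length offset and 58 (74.1%) with the 2 groups alone. Library size alone moved the median of all genes there by -0.129 and limma by -0.100. Between HFpEF+SGLT2i and vehicle 117 genes were called, 457 with no filter, 3 with the 2 groups alone and 0 with limma. Limma called 506 and 512 genes in the drug groups against non_failing, beside 1017 and 888. Between the drugs 185 were called with DESeq2 and 5 with a length offset. The lowest count of a member was 153, and the effect of depth on calls was not tested.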
